A study of Mus musculus with 20 samples.

Results

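Chemokines are small secreted proteins that direct the movement of leukocytes, and chemokine receptors are the G protein-coupled receptors through which leukocytes and other cells sense them. The genes described here are all those on the array whose symbol follows the chemokine nomenclature, ligands named Ccl, Cxcl, Xcl1 or Cx3cl1 and receptors named Ccr, Cxcr, Xcr1 or Cx3cr1. The rule found 50 genes, 35 ligands and 15 receptors, of 27962 gene names on the array, and each gene is represented by the brightest of its probes. Expression was measured in uteri of ovariectomized C57bl6/J mice, adults of 10 weeks or more that had rested 10 to 14 days after surgery. All mice received a subcutaneous injection in sesame oil, and each uterus was hybridized by itself to a one-colour Agilent array. Vehicle mice (n = 3) received 100 µl sesame oil. Estradiol (E2, the main ovarian estrogen) was given at 250 ng and the uterus was collected at 2 h (n = 3) or 24 h (n = 2). Bisphenol A (BPA, a plastics monomer with estrogenic activity) and HPTE (made in the body from methoxychlor, an insecticide, and itself estrogenic) were each given at 750 µg, with collection at 2 h (n = 3) and 24 h (n = 3). The vehicle arrays are all named as 24 h samples, so both times of every compound were set against the same 3 arrays, and differences from vehicle at 2 h also contain any effect of the time after injection. Each replicate is the uterus of 1 mouse, so the p-values measure the spread between uteri, and the vehicle uterus, without ovaries, is a hormone-deprived tissue.

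In the uterus, leukocytes enter and leave as estrogen rises and falls. The Ccl ligands (CC chemokines) mainly draw monocytes, eosinophils, dendritic cells and lymphocytes. The Cxcl ligands (CXC chemokines) split into those that draw neutrophils through Cxcr2 and those, induced by interferon, that draw activated T cells through Cxcr3. Homeostatic ligands such as Cxcl12, Ccl19 and Ccl21 place resident cells in tissues. In bulk tissue, fewer cells of a type and less RNA per cell cannot be told apart, and this applies to each receptor described below.

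A level in this text is the log2 processed signal of a probe minus the 75th percentile of its array, and it can be compared between arrays for 1 gene but not between genes. Of the 50 genes, 44 (31 ligands and 13 receptors) passed the detection filter and were tested, 40 were well above background on all 20 arrays, and Ccl22, Ccr1 and Cxcl11 were well above background on none. The arrays of 1 group correlated at 0.981 to 0.992 over all probes, and 13 of 13 uterine markers, among them Esr1, Pgr and Hoxa10, were well above background on all 20 arrays. Transcripts of other tissues stood apart on some arrays. The summed level of 6 sperm transcripts was 4.91 to 6.62 on the vehicle arrays and between -1.71 and 3.6 on all treated arrays. That of 7 pancreatic transcripts was 10.91 and 7.11 on E2 2 h replicates 2 and 3 and 1.91 and 3.35 on the E2 24 h arrays, against -2.05 to -0.74 elsewhere. Their part in the differences from vehicle was not tested, and comparisons between treated groups, which use no vehicle array, are given further on.

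Responses were largest after E2 at 24 h. There 29 of the 44 tested genes differed from vehicle (adjusted p under 0.05, limma, Benjamini-Hochberg over all probes tested), 11 of them higher and 18 lower, and 24 of the 29 changed at least 2-fold. Over all 32460 probes tested, 63.8% passed in that comparison, 26.3% higher and 37.6% lower, so the share of chemokine genes that passed, 65.9%, lay close to the background. After E2 at 2 h, 4 genes passed, 0 higher and 4 lower, beside 28.1% of all probes (11.1% higher and 17.0% lower). After BPA at 2 h, 11 passed, 7 higher and 4 lower, beside 49.4% of all probes (19.3% higher and 30.2% lower). After HPTE at 2 h, 11 passed, 3 higher and 8 lower, beside 48.1% (19.9% higher and 28.2% lower). At 24 h, 6 genes passed after BPA, 4 higher and 2 lower, beside 13.1% of all probes (5.09% higher and 8.03% lower). After HPTE at 24 h, 7 passed, 3 higher and 4 lower, beside 34.0% (14.9% higher and 19.1% lower). The count after BPA at 24 h was 0 after normexp, with spike-in scaling and with the slide as a block (at an unadjusted p under 0.05 the counts were 9, 9 and 16). It was 1 without any of 3 arrays, replicate 1 or 2 of vehicle or replicate 1 of BPA at 24 h. The count after HPTE at 2 h was 6 without vehicle replicate 2 and 7 without HPTE 2 h replicate 3. After E2 at 24 h, of 31 ligands 11 were higher and 11 lower, and of 13 receptors 0 were higher and 7 lower, with a median difference of -1.06 over the receptors, -0.36 over the ligands and -0.15 over all probes. Whether ligands and receptors differ was not tested.

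**Figure D1:**
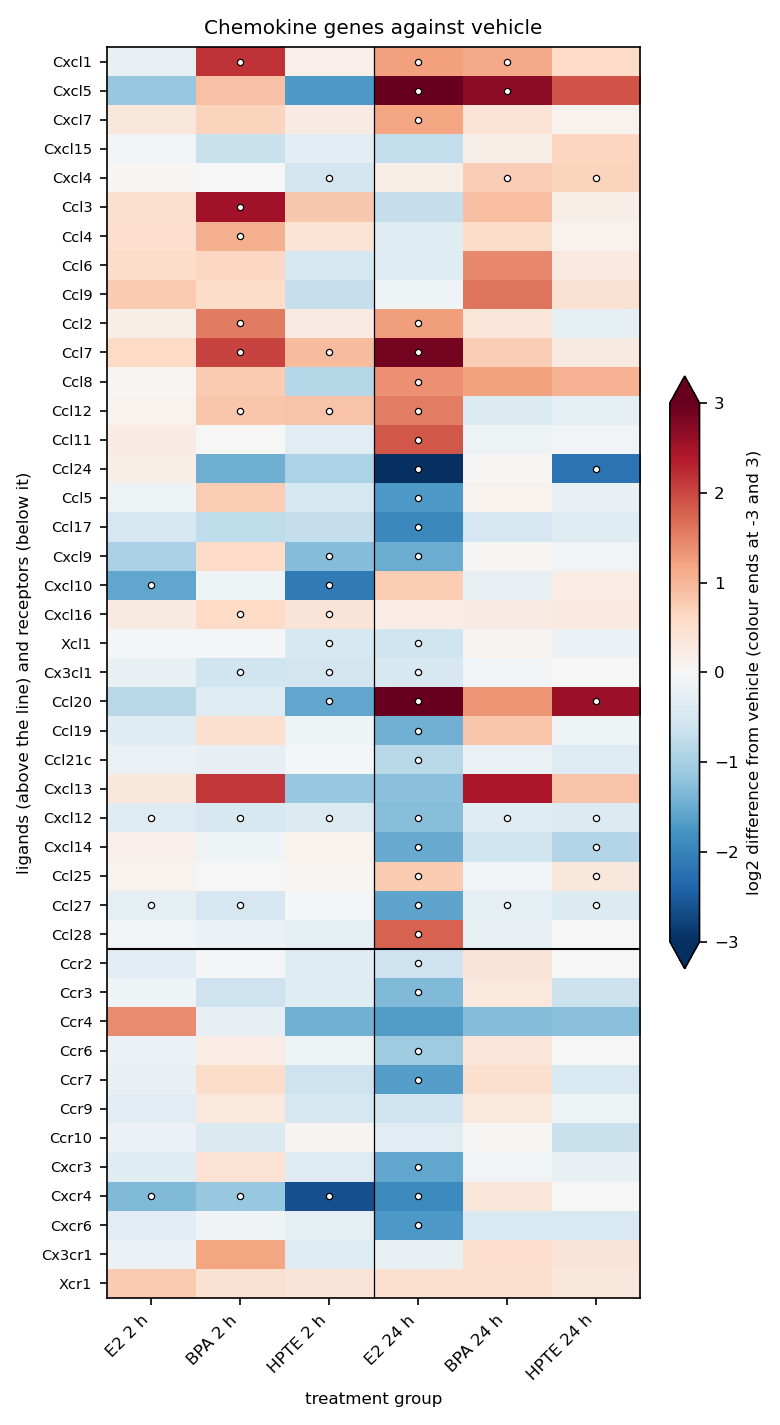
Log2 difference from vehicle (colour) of 43 of the 44 tested chemokine genes in the 6 treated groups, ligands above the horizontal line and receptors below it; a white dot marks adjusted p under 0.05. The E2 24 h column holds 29 dots, with 11 genes higher and 18 lower, and Cxcl12 has a dot in all 6 columns.

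The ligands that draw monocytes and eosinophils and lie next to each other on chromosome 11 rose together after E2 at 24 h. The probes of Ccl2, Ccl7, Ccl11, Ccl12, Ccl8 and Ccl1 span 139.7 kb, chr11:82118723-82258468 on mm7, the build of the probe positions. Ccl1 was not tested, and 5 of the 5 others were higher after E2 at 24 h, beside 26.3% of all probes. Ccl2 and Ccl7 are the ligands of Ccr2 that draw monocytes, Ccl12 is a further Ccr2 ligand of rodents, and Ccl8 draws monocytes and lymphocytes. RefSeq holds promoters for Ccl12 and Ccl8, which are shown because these neighbouring genes moved together in this group. Each line gives 170 bases before to 30 bases after the transcription start, 5′ to 3′, on GRCm38.p6, Ccl12 at chr11:82101675-82101874 and Ccl8 at chr11:82115015-82115214, both on the plus strand. Capitals mark a TATA box, TATAAA, searched on both strands, and the letters begin 31 bases before the start in Ccl12 and 32 in Ccl8.
Ccl12: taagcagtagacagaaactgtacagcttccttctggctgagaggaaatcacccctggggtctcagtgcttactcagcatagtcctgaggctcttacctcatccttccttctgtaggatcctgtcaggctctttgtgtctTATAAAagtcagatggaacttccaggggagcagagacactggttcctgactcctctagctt
Ccl8: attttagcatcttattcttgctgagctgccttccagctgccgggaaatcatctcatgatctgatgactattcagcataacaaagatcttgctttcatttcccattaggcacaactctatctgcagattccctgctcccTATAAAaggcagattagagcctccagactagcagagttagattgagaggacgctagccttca
The TATA letters occurred in 13.6% of 32851 mouse promoters of 300 bases and in 11 of the 37 chemokine genes with a promoter. No chemokine promoter held a full estrogen response element (ERE), a match found in 0.07% of all promoters, and 20 of 37 held the shorter motif GGTCA, one arm of that element, on either strand, which 40.5% of all promoters also held.

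Ccl7 had levels of -3.19, -3.46 and -3.82 on the vehicle arrays and of -0.87 and -0.36 on the E2 24 h arrays. It was 7.34-fold higher (log2 difference 2.88, SE 0.40, adjusted p = 1.66e-05), and its other probe gave 2.79. Ccl11, the eosinophil ligand eotaxin, had -0.92, -0.81 and -1.24 on the vehicle arrays and 0.72 and 1.04 after E2 at 24 h. The 2 E2 arrays lay above all 18 other arrays, on which Ccl11 ranged from -1.85 to -0.55. Ccl11 was 3.66-fold higher (log2 1.87, SE 0.21, adjusted p = 1.93e-06), and no other group differed from vehicle. Ccl12 rose from -1.79, -1.73 and -2.47 to -0.77 and -0.17 (log2 1.53, SE 0.25, adjusted p = 6.8e-05). Ccl2 had -1.43, -1.25 and -1.78 on the vehicle arrays and -0.61 and 0.14 after E2 at 24 h (log2 1.25, SE 0.43, adjusted p = 0.0181). The groups did not overlap, but the Ccl2 call was lost without E2 24 h replicate 3 (log2 0.87, adjusted p = 0.183) and without vehicle replicate 3 (adjusted p = 0.0569). Ccl8 had -0.06, -0.20 and 0.00 on the vehicle arrays and 1.37 and 1.17 after E2 at 24 h (log2 1.36, SE 0.45, adjusted p = 0.0150), a call that was lost with the slide as a block (log2 0.97, adjusted p = 0.0836) and without E2 24 h replicate 2 (adjusted p = 0.0816). Slide 5 held replicate 3 of vehicle and of E2 at 24 h, beside arrays of BPA and HPTE at 24 h. On it the E2 array was higher than the vehicle array by 1.92 for Ccl2, 3.46 for Ccl7, 2.28 for Ccl11, 2.31 for Ccl12 and 1.17 for Ccl8. These are differences of 1 array from 1 array. For Ccl2, Ccl7, Ccl11 and Ccl12 they set the highest E2 array against the lowest vehicle array, so they add no separate evidence. The summed level of 11 macrophage and monocyte markers was 6.13 and 6.19 after E2 at 24 h and 6.67 to 6.82 on the vehicle arrays. Of these markers, Fcgr1 was higher, Lyz2 lower and 9 did not pass, and their part in the ligand changes was not tested.

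Another group of neighbouring CC genes, Ccl5, Ccl9, Ccl6, Ccl3 and Ccl4, has probes at chr11:83595699-83734514 on mm7, a span of 138.8 kb. After E2 at 24 h 0 of these 5 genes were higher, beside 26.3% of all probes. Only Ccl5 was lower (log2 -1.71, SE 0.39, adjusted p = 0.00121), beside 37.6% of all probes. Ccl3 and Ccl4, macrophage inflammatory proteins, rose after BPA at 2 h, as described below. Ccl6 and Ccl9 passed in no comparison with vehicle, and their largest differences, 1.43 and 1.61, were after BPA at 24 h. Whether the 2 clusters differ was not tested.

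**Figure D2:**
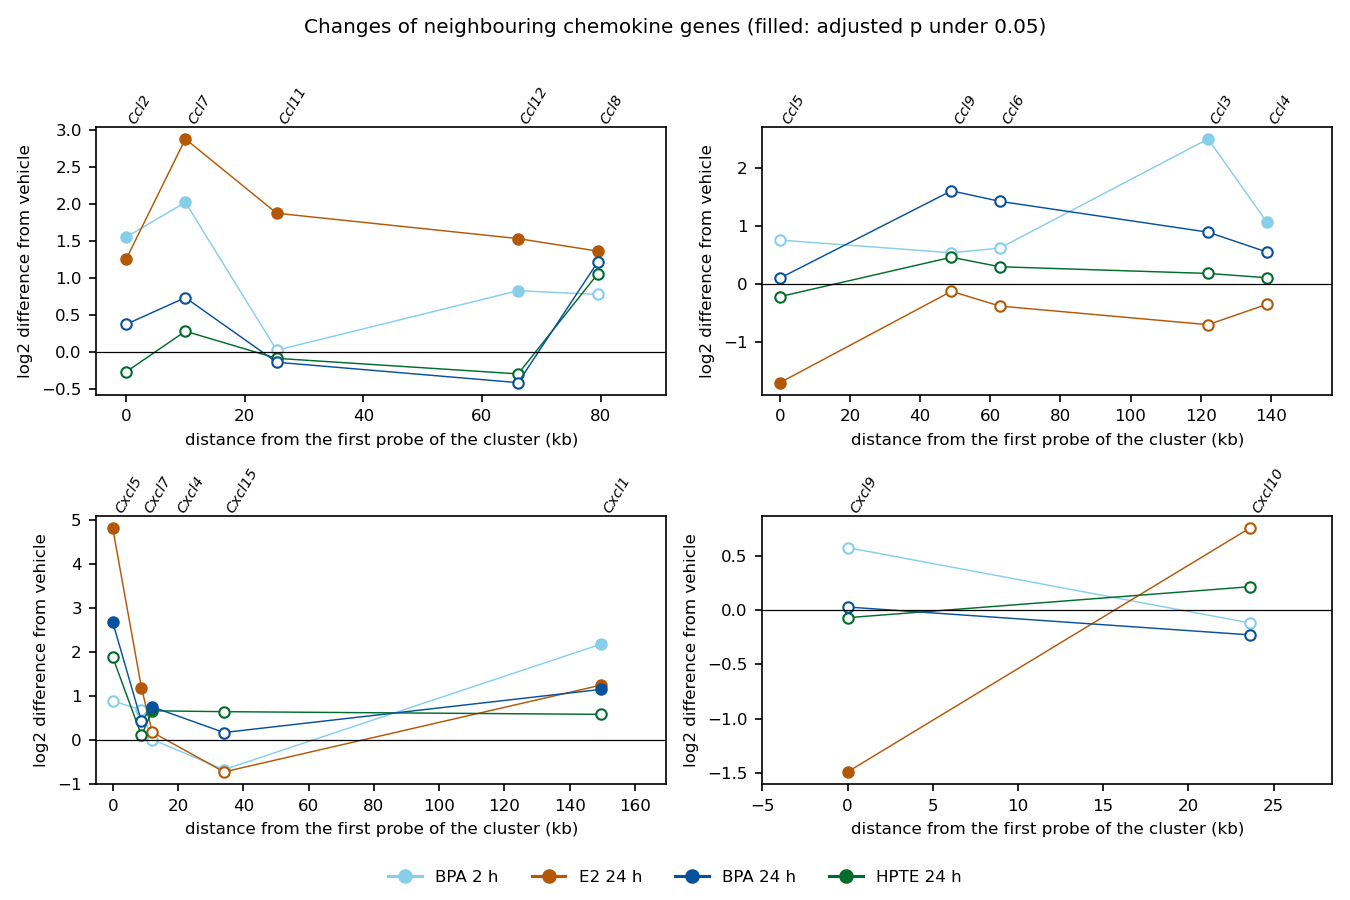
Log2 difference from vehicle (y axis) against distance from the first probe of the cluster in kb (x axis) for the tested genes of 4 chemokine clusters, in 4 treated groups; filled points have adjusted p under 0.05, and each panel has its own y axis. In the Ccl2 to Ccl8 panel 5 of 5 genes are filled for E2 24 h, and in the Ccl5 to Ccl4 panel only Ccl5 is, below 0.

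Cxcl1 and Cxcl5 passed as higher after E2 and BPA at 24 h, but each of these calls was lost under some of the alternatives. Both bind Cxcr2 on neutrophils, and Cxcl7 (now Ppbp) is the platelet ligand of the same receptor. Cxcl5 had the largest increase of all chemokine genes, but it is dim. It was well above background on 2 of 3 vehicle arrays and had levels of -8.59, -6.33 and -5.91 there, against -3.32 and -0.94 after E2 at 24 h (28.1-fold, log2 4.81, SE 0.94, adjusted p = 3.55e-04). After BPA at 24 h Cxcl5 had -3.74, -5.09 and -3.98 (log2 2.67, SE 0.84, adjusted p = 0.0479), and after HPTE at 24 h -4.59, -5.40 and -5.20 (log2 1.88), which did not pass. All 8 treated arrays at 24 h lay above the 3 vehicle arrays. With background corrected by normexp the difference after E2 was 2.13 (adjusted p = 0.0562), and the BPA call was lost under 7 of the 10 alternatives that could be run for it and without any of 14 single arrays.

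Cxcl1 had -5.42, -5.07 and -5.08 on the vehicle arrays and rose most after BPA at 2 h, to -3.14, -2.74 and -3.16 (4.51-fold, log2 2.17, SE 0.36, adjusted p = 1.68e-04). The BPA 2 h arrays lay above every other array except E2 24 h replicate 3. After BPA at 24 h Cxcl1 had -4.12, -3.75 and -4.26 (log2 1.15, SE 0.36, adjusted p = 0.0482), a call near the threshold that was lost without any of 15 single arrays. Among other alternatives, this call was also lost after normexp (log2 0.77, adjusted p = 0.689), with spike-in scaling (adjusted p = 0.306) and with the slide as a block (adjusted p = 0.166). After E2 at 24 h Cxcl1 had -4.75 and -3.14 (log2 1.24, SE 0.40, adjusted p = 0.0136), and without replicate 3 the difference was 0.44. The E2 call was lost after normexp (log2 0.37, adjusted p = 0.648), with the slide as a block (adjusted p = 0.0993) and on the compared groups alone (adjusted p = 0.0743). Cxcl7 was higher after E2 at 24 h (log2 1.18, SE 0.39, adjusted p = 0.0141), with 0.17 (adjusted p = 0.857) after normexp. The receptor Cxcr2, listed on the array under its old symbol Il8rb and so not found by the rule, was higher after BPA at 24 h (log2 2.27, past the threshold). The summed level of the 11 neutrophil markers on the array ran from -0.11 to 2.73 over the 3 vehicle arrays, wider than its range in the BPA 24 h group, 1.92 to 2.84. The part of neutrophils in the Cxcl1 and Cxcl5 levels was not tested.

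Ccl20, a ligand that draws Ccr6-bearing dendritic cells and lymphocytes to epithelium, was near background except at 24 h. It was well above background on 1 of 3 vehicle arrays, on both E2 24 h arrays, on 2 of 3 BPA 24 h arrays, on 3 of 3 HPTE 24 h arrays and on no 2 h array. Its levels were -7.55, -6.90 and -7.89 on the vehicle arrays, -4.66 and -3.20 after E2 at 24 h, -4.39, -6.65 and -7.36 after BPA at 24 h and -5.10, -4.34 and -5.11 after HPTE at 24 h. The E2 and HPTE arrays at 24 h lay above all vehicle arrays, and the BPA arrays overlapped them. Ccl20 was higher after E2 (log2 3.52, SE 0.64, adjusted p = 2.02e-04) and HPTE (log2 2.60, SE 0.57, adjusted p = 0.00308) at 24 h, and the difference after BPA was 1.32 and did not pass. After normexp these differences shrank to 0.75 (adjusted p = 0.593) and 0.25 (adjusted p = 0.867). After HPTE at 2 h Ccl20 is among the 8 genes counted as lower (adjusted p = 0.0351), but 0 of 3 arrays of that group and 1 of 3 vehicle arrays were well above background, so no decrease was measured. Ccl20 passed the detection filter only through E2 and HPTE at 24 h, where it is high. Its receptor Ccr6 had -3.54, -3.59 and -3.08 on the vehicle arrays and -4.82 and -4.11 after E2 at 24 h (log2 -1.06, SE 0.31, adjusted p = 0.00702), lower while the ligand was higher. The Ccr6 call was lost after normexp (adjusted p = 0.181), with quantile normalization (adjusted p = 0.0808) and without E2 24 h replicate 2 (log2 -0.71, adjusted p = 0.122).

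Cxcl1 and Ccl20 are shown next because both rose and both hold a match to the NF-kB motif, the binding site of a factor of inflammatory signalling, close to their start. The windows, 170 bases before to 30 after the start on GRCm38.p6, lie at chr5:90891075-90891274 for Cxcl1 and chr1:83116596-83116795 for Ccl20, both on the plus strand. Capitals mark the NF-kB match, which begins 71 bases before the start in Cxcl1, where matches on both strands overlap, and 80 in Ccl20.
Cxcl1: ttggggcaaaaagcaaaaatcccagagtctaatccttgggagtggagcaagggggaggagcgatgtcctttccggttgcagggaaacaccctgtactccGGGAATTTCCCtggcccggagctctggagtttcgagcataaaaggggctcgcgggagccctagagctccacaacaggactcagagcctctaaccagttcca
Ccl20: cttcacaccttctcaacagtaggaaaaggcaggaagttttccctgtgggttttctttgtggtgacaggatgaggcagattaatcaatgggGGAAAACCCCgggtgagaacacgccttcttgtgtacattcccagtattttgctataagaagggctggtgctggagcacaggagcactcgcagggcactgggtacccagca
An NF-kB match on either strand was found in 10 of the 37 chemokine genes with a promoter and in 8.46% of all promoters of this length.

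**Figure D3:**
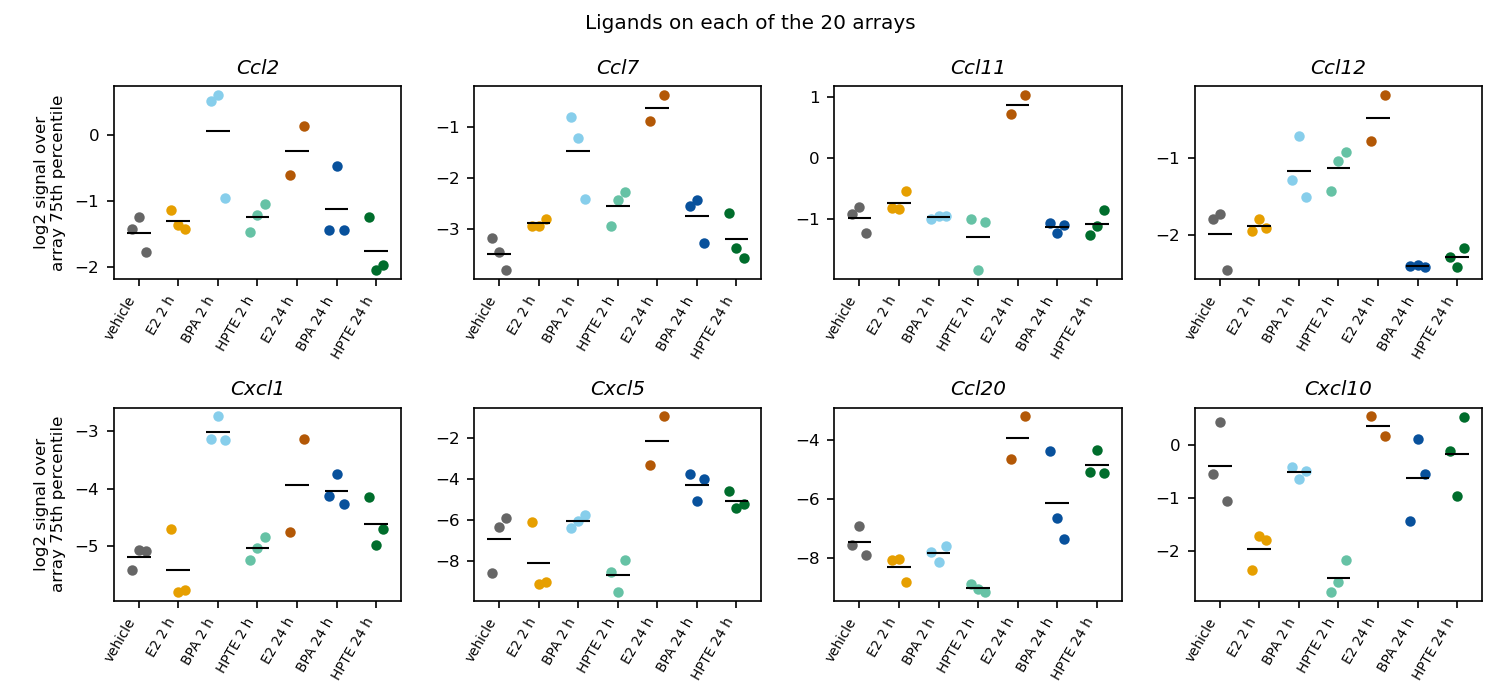
Level (y axis, log2 signal over the 75th percentile of the array) of 8 ligands on each of the 20 arrays by group (x axis), with a line at each group mean and a y axis of its own for each gene. For Ccl11 the 2 E2 24 h arrays lie above all other arrays, and for Cxcl1 the 3 BPA 2 h arrays lie between -3.16 and -2.74, above the vehicle arrays.

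After BPA at 2 h, 7 ligands were higher than vehicle: Ccl2, Ccl3, Ccl4, Ccl7, Ccl12, Cxcl1 and Cxcl16. Ccl3 had -3.07, -3.48 and -3.10 on the vehicle arrays and 1.18, -1.07 and -2.23 after BPA at 2 h, all above vehicle with a wide spread between the uteri (5.70-fold, log2 2.51, SE 0.66, adjusted p = 0.00528). Fitted on the BPA 2 h and vehicle arrays alone, with the same difference, Ccl3 did not pass (adjusted p = 0.0584). Ccl7 had -0.79, -1.21 and -2.41 (log2 2.02, SE 0.36, adjusted p = 3.13e-04) and Ccl2 0.53, 0.62 and -0.96 (log2 1.55, SE 0.38, adjusted p = 0.00348). In all 3 genes BPA replicate 3 was the lowest of its group. Ccl4 (log2 1.08), Ccl12 (log2 0.83) and Cxcl16 (log2 0.61) also passed. With spike-in scaling the BPA calls of Ccl12 (adjusted p = 0.0521) and Cxcl16 (adjusted p = 0.109) were lost. That of Ccl12 was also lost on the compared groups alone (adjusted p = 0.0680). HPTE at 2 h raised Ccl7 (log2 0.94, adjusted p = 0.0423), Ccl12 (log2 0.86, adjusted p = 0.00456) and Cxcl16 (log2 0.38, adjusted p = 0.0218), and after E2 at 2 h 0 of the 44 were higher. The HPTE call of Ccl7 was lost after normexp (log2 0.41, adjusted p = 0.553), with the slide as a block, with no filter and without any of 7 single arrays. That of Ccl12 was lost after normexp (adjusted p = 0.0893), and that of Cxcl16 with spike-in scaling (adjusted p = 0.142) and without vehicle replicate 1 or HPTE 2 h replicate 3. Without BPA 2 h replicate 3 the count for BPA at 2 h was 18 instead of 11. On slide 3 the BPA 2 h array exceeded the vehicle array by 4.67 for Ccl3 and on slide 1 by 0.84, and for Ccl2 the within-slide differences were 1.78 and 0.47.

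Leukocyte markers were read on the BPA 2 h arrays beside a background of 19.3% of all probes higher and 30.2% lower. Of 11 macrophage and monocyte markers 6 were higher and 0 lower after BPA at 2 h, among them Adgre1 (log2 1.94) and C1qb (log2 1.30), and the summed level was 8.0, 7.38 and 6.98 against 6.67 to 6.82 on the vehicle arrays. Replicate 1 was highest for this sum, as it was for Ccl3. Of 7 tested B cell markers 2 were higher (Cd79b, log2 1.90, and Igh-6, log2 1.89). The summed level of the 8 B cell markers on the array was 4.97, 4.04 and 2.22 against 1.60 to 2.13. Of 10 neutrophil markers 3 were higher, Fpr1, Clec4e and Csf3r. Of 13 uterine markers 1 was higher and 7 lower (median -0.59). Their summed level was 7.79, 8.13 and 8.23 against 8.3 to 8.34 on the vehicle arrays. It was 8.16 to 8.25 after E2 and 8.17 to 8.21 after HPTE at 2 h. The summed level of 6 genes of lymph node vessels and stroma was 3.39, 2.82 and 2.1 against 2.12 to 2.45 on the vehicle arrays. Of these 6 genes 0 were higher and 0 lower. The part of these cells and tissues in the ligand levels was not tested. Of 20 tested genes of the list of inflammatory cytokines, NF-kB feedback and adhesion, 11 were higher and 1 lower after BPA at 2 h, with a median of 0.41. Among them Il1b (log2 2.52), Il6 (log2 2.76), Tnf (log2 1.51) and Sele (log2 5.28), the endothelial adhesion molecule E-selectin, were higher. Il6 (log2 1.29 and 1.52) and Sele (log2 3.95 and 4.65) were also higher after E2 and HPTE at 2 h. Il6 and Sele were each well above background on only 9 of the 20 arrays, so the sizes of their differences are uncertain.

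Ccl24, also called eotaxin-2, is an eosinophil ligand made by macrophages, and it moved against Ccl11. Its levels were -1.95, -1.73 and -2.31 on the vehicle arrays, -5.17 and -5.60 after E2 at 24 h and -4.22, -3.84 and -4.55 after HPTE at 24 h. Neither of these groups overlapped vehicle. Ccl24 was 10.4-fold lower after E2 (log2 -3.38, SE 0.79, adjusted p = 0.00158) and 4.62-fold lower after HPTE (log2 -2.21, SE 0.71, adjusted p = 0.0259), and its other probe gave -3.71 and -2.30. The HPTE call was lost with the slide as a block (log2 -2.88, adjusted p = 0.0613) and without any of 4 single arrays, vehicle replicates 1 and 2 and HPTE replicates 1 and 3. After BPA at 24 h the levels were -0.93, -3.70 and -1.28, with a difference of 0.03. Ccr3, the receptor of both eotaxins, had -4.48, -3.33 and -3.38 on the vehicle arrays and -5.51 and -4.61 after E2 at 24 h (log2 -1.33, SE 0.40, adjusted p = 0.00892). So in the same uteri Ccl11 was higher and its receptor lower. The Ccr3 groups were separated by only the E2 value of -4.61 and the vehicle value of -4.48, and the call was lost after normexp (adjusted p = 0.270), with quantile normalization (adjusted p = 0.0793), on the 2 groups alone (adjusted p = 0.0543) and without E2 24 h replicate 2 (log2 -0.87, adjusted p = 0.142). Of 4 tested eosinophil markers Ear1 (log2 -1.03) and Ear6 (log2 -0.97) were lower after E2 at 24 h (beside 37.6% of all probes), Prg2 and Siglecf did not pass, and Epx, the defining eosinophil peroxidase, was well above background on 1 array. Their part in the Ccr3 result was not tested.

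Cxcl12, the stromal ligand that holds Cxcr4-bearing cells in tissue, was lower in every treated group. It had 4.47, 4.33 and 4.33 on the vehicle arrays and between 3.07 and 4.07 on all treated arrays, so no treated array reached the lowest vehicle array. After E2 at 24 h it had 3.14 and 3.07 (2.42-fold lower, log2 -1.27, SE 0.08, adjusted p = 7.04e-09), and in the other groups the difference ran from -0.49 after BPA at 2 h to -0.36 after BPA at 24 h, all past the threshold. Since the 6 groups share the vehicle arrays, the 5 small differences are not independent of each other. With arrays scaled on spike-in controls none of those 5 passed, and the other probe of Cxcl12 gave 0.03 after BPA at 24 h and -0.06 after HPTE at 24 h, beside -1.82 after E2 at 24 h.

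Cxcr4, the receptor of Cxcl12, was lower after all 3 compounds at 2 h. It had -2.12, -1.93 and -1.80 on the vehicle arrays, -2.93, -3.43 and -3.43 after E2, -3.01, -2.92 and -3.31 after BPA and -4.64, -4.74 and -4.38 after HPTE at 2 h. No 2 h array overlapped vehicle, and the HPTE arrays lay below all others. The differences were -1.31 (SE 0.17, adjusted p = 4.1e-05) for E2, -1.13 (SE 0.17, adjusted p = 7.38e-05) for BPA and -2.64 (SE 0.17, adjusted p = 4.05e-08) for HPTE, and the other probe gave -1.30, -1.02 and -2.35. At 24 h Cxcr4 had -3.70 and -4.01 after E2 (log2 -1.91, SE 0.19, adjusted p = 5.54e-07), while BPA (log2 0.35) and HPTE (log2 0.01) did not pass. From 2 h to 24 h, with no vehicle array involved, Cxcr4 rose by 1.49 after BPA and by 2.65 after HPTE, and fell by 0.60 after E2. After normexp the difference at 2 h was -0.05 (adjusted p = 0.906) for BPA and -1.11 (adjusted p = 0.0811) for E2. The Cxcr4 promoter is shown because this receptor changed in most groups. The window is chr1:128592270-128592469 on GRCm38.p6, minus strand, and capitals mark overlapping TATA box matches on both strands, beginning 32 and 30 bases before the start.
Cxcr4: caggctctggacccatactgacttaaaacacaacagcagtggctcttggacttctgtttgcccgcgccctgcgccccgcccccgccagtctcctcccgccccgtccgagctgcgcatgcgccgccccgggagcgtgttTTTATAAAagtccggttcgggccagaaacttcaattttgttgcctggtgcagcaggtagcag

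Cxcl9 and Cxcl10, interferon-induced ligands that draw T cells through Cxcr3, were both lower after HPTE at 2 h, and Cxcl10 also after E2. Cxcl10 had -0.55, 0.43 and -1.07 on the vehicle arrays, -2.36, -1.73 and -1.79 after E2 and -2.78, -2.59 and -2.18 after HPTE at 2 h. Both groups lay below all vehicle arrays (E2 log2 -1.56, SE 0.43, adjusted p = 0.0128, and HPTE log2 -2.12, SE 0.43, adjusted p = 7.5e-04). After BPA at 2 h it had -0.41, -0.65 and -0.49, within the range of the vehicle arrays (log2 -0.12). The E2 call was lost without vehicle replicate 2 (log2 -1.15, adjusted p = 0.0694) and without E2 2 h replicate 1 (adjusted p = 0.0503). Cxcl9 was lower after HPTE at 2 h (log2 -1.31, SE 0.46, adjusted p = 0.0294) and after E2 at 24 h (log2 -1.49, SE 0.52, adjusted p = 0.0198), and both calls were lost without vehicle replicate 2 (log2 -0.82 and -1.01). The Cxcl10 promoter, chr5:92348860-92349059 on GRCm38.p6, minus strand, is shown because it holds NF-kB and AP-1 matches in the window of a gene that fell at 2 h. Capitals mark, in order, an NF-kB match that begins 159 bases before the start, overlapping NF-kB matches from 104 bases before it, and the AP-1 motif TGANTCA at 74 bases before it.
Cxcl10: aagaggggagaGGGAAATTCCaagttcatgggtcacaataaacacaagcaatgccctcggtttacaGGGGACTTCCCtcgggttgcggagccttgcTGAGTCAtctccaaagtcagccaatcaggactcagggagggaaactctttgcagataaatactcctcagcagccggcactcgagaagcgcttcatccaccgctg
The AP-1 motif, searched on both strands, was in 8 of the 37 chemokine genes with a promoter and in 7.81% of all promoters. The receptor Cxcr3 had -0.47, -0.83 and -0.26 on the vehicle arrays and -2.19 and -1.94 after E2 at 24 h (log2 -1.55, SE 0.33, adjusted p = 7.75e-04), below all other arrays, on which it ranged from -1.06 to 0.60.

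Ccl5, Ccl17, Ccl19, Ccl21c, Ccr7 and Cxcr6, ligands and receptors that guide lymphocytes or dendritic cells, were lower after E2 at 24 h. Ccl5 (RANTES, a ligand that draws T cells) had 1.61, 1.35 and 1.59 on the vehicle arrays and -0.23 and -0.15 after E2 at 24 h, and its other probe also fell (log2 -1.62). Ccr7, the receptor that guides dendritic cells and T cells to lymph nodes, had -4.62, -4.15 and -3.87 on the vehicle arrays and -6.02 and -5.72 after E2 (log2 -1.66, SE 0.36, adjusted p = 8.32e-04). Its ligands Ccl19 (log2 -1.44, adjusted p = 0.00267) and Ccl21c (4.49, 4.58 and 4.72 on the vehicle arrays, 4.0 and 3.54 after E2, log2 -0.83, adjusted p = 8.25e-04) were also lower. The Ccl21c probe cannot be told apart from near-identical gene copies. The Ccr7 call was lost after normexp (log2 -1.03, adjusted p = 0.188), and the Ccl21c call with spike-in scaling (log2 -0.79, adjusted p = 0.0935). Ccl17, a ligand of Ccr4 made by dendritic cells, had -2.78, -2.37 and -2.40 on the vehicle arrays and -4.69 and -4.20 after E2 (3.82-fold lower, log2 -1.93, SE 0.37, adjusted p = 3.1e-04). Cxcr6, a receptor of resident T and NK cells, had 1.07, 1.13 and 1.20 on the vehicle arrays and -0.69 and -0.47 after E2 (log2 -1.71, SE 0.31, adjusted p = 1.65e-04), below all other arrays.

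Cxcl16, the ligand of Cxcr6, had 0.66, 0.92 and 1.02 on the vehicle arrays, 1.64, 1.59 and 1.19 after BPA at 2 h (adjusted p = 0.00108) and 1.19, 1.15 and 1.39 after HPTE at 2 h. After E2 at 24 h its 2 probes disagreed, with 0.21 for the brighter and -1.41 for the other (the latter past the threshold), so no direction is given for Cxcl16 there. Cx3cl1 (fractalkine, a membrane-bound ligand of endothelium and epithelium) had 2.47, 2.46 and 2.58 on the vehicle arrays, 1.73, 1.88 and 2.08 after BPA at 2 h, 1.94, 2.03 and 1.90 after HPTE at 2 h and 2.12 and 1.93 after E2 at 24 h. It was lower in these 3 groups (log2 -0.61, -0.54 and -0.47). With spike-in scaling none of the 3 Cx3cl1 calls was kept (adjusted p = 0.234, 0.535 and 0.296). Its receptor Cx3cr1, of monocytes and macrophages, passed in no comparison with vehicle. Cx3cr1 had 1.07, -1.20 and -1.90 after BPA at 2 h against -1.72, -1.88 and -2.01 on the vehicle arrays, with replicate 1 again the highest. Ccr2, the monocyte receptor of Ccl2, had 0.38, 0.12 and 0.08 on the vehicle arrays and -0.62 and -0.24 after E2 at 24 h (log2 -0.63, SE 0.21, adjusted p = 0.0175). The other Ccr2 probe gave -0.41 and did not pass, and the call was lost without E2 24 h replicate 2 (log2 -0.44, adjusted p = 0.178) and without vehicle replicate 1 (adjusted p = 0.0617). Xcl1, a ligand made by T and NK cells, was lower after E2 at 24 h (log2 -0.60) and HPTE at 2 h (log2 -0.48), and both calls were lost after quantile normalization (adjusted p = 0.0970 and 0.139).

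**Figure D4:**
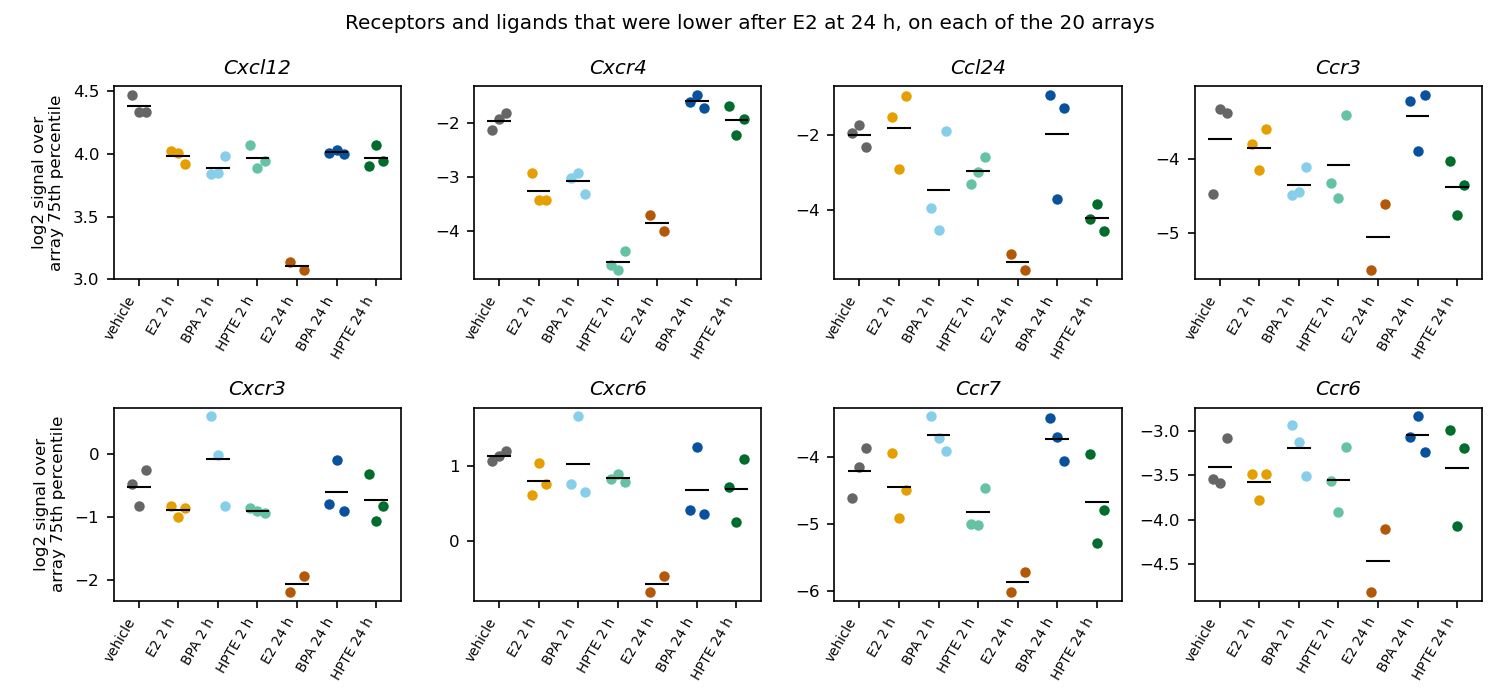
Level (y axis, log2 signal over the 75th percentile of the array) of 2 ligands and 6 receptors on each of the 20 arrays by group (x axis), with a line at each group mean and a y axis of its own for each gene. Cxcr4 is lower than vehicle in the 3 groups at 2 h and after E2 at 24 h, and for Cxcr3 and Cxcr6 the 2 E2 24 h arrays lie below all others.

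Leukocyte markers were read in the same comparison, E2 at 24 h, in which 26.3% of all probes were higher and 37.6% lower. Of 8 T cell markers 5 were lower and 0 higher, with Cd3d at -1.92, Cd3g at -1.78 and Cd247 at -1.84, whereas Cd3e, Cd4 and Lck did not pass, and the summed level was 0.01 and 0.16 against 0.78 to 1.04 on the vehicle arrays. Of 7 NK cell markers 5 were lower (summed level -1.0 and -0.94 against -0.10 to 0.21). Of 6 tested dendritic cell markers 5 were lower (4.26 and 4.32 against 5.38 to 5.66), among them Itgax (log2 -1.44) and the class II genes H2-Aa, H2-Ab1 and H2-Eb1. Of 7 tested B cell markers Ms4a1 and Cd22 were lower. Of 6 genes of lymph node vessels and stroma 3 were lower, Lta, Ltb and Fut7, and the summed level was 0.72 and 1.14 against 2.12 to 2.45. The part of fewer such cells in the lower Ccr7, Cxcr3, Cxcr6, Ccl5, Ccl17 and Ccl19 was not tested. Among the receptors that did not pass after E2 at 24 h were Ccr4, Ccr9, Ccr10, Cx3cr1 and Xcr1.

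**Figure D5:**
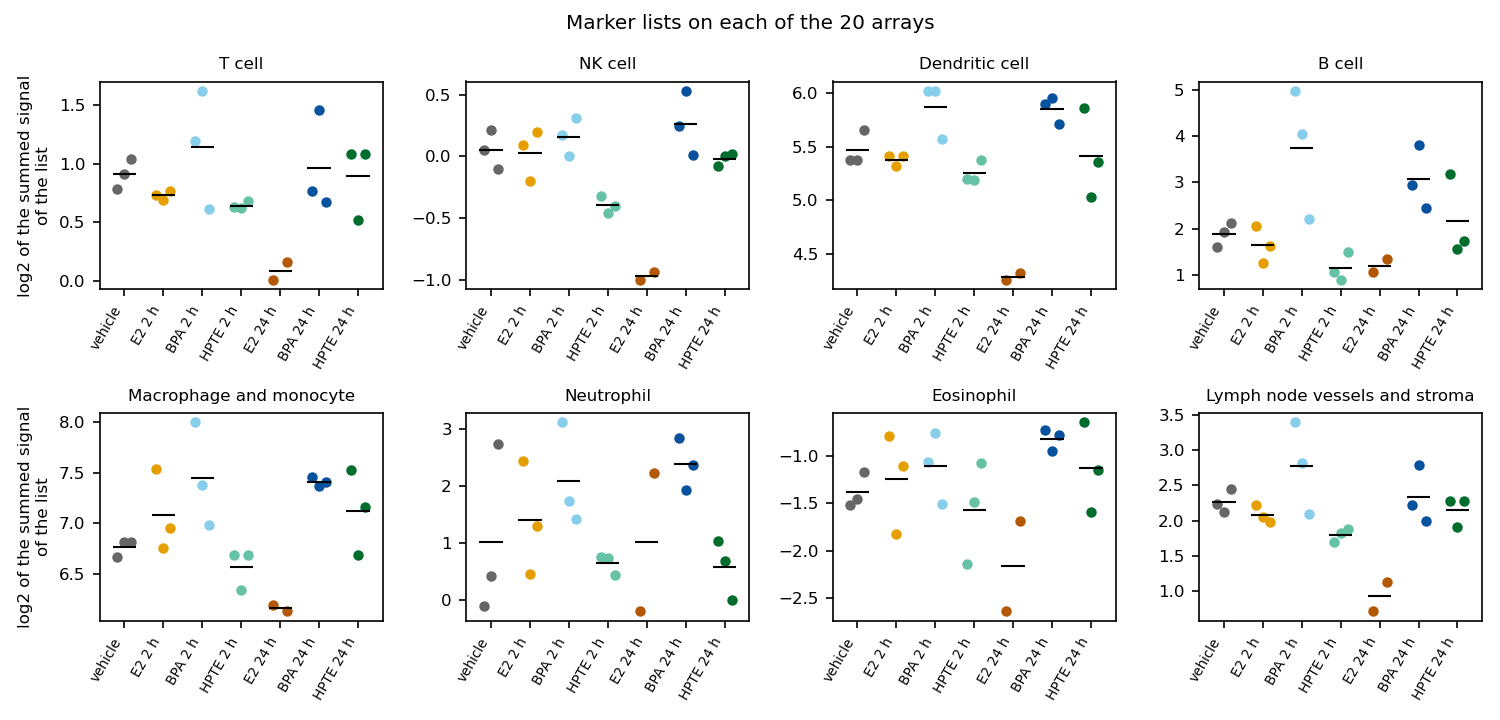
Log2 of the summed signal of each marker list (y axis, signal relative to the 75th percentile of the array) on each of the 20 arrays by group (x axis), with a line at each group mean. After E2 at 24 h the T cell, NK cell and dendritic cell lists lie below all vehicle arrays, and the neutrophil list runs from -0.11 to 2.73 within the vehicle group.

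Ligands made by epithelium changed in different directions after E2 at 24 h. Ccl28, a mucosal epithelial ligand, rose from -5.46, -5.35 and -5.40 to -3.91 and -3.37 (3.41-fold, log2 1.77, SE 0.21, adjusted p = 4.09e-06), and the difference was 0.60 (adjusted p = 0.605) after normexp. Ccl25, the thymic and gut ligand of Ccr9, had -1.60, -1.71 and -1.92 on the vehicle arrays and -0.96 and -0.98 after E2 at 24 h (log2 0.78, SE 0.11, adjusted p = 2.49e-05). The 3 Ccl25 probes disagreed, with 1.01 and -0.47 for the dimmer ones, both past the threshold. After HPTE at 24 h Ccl25 had -1.54, -1.35 and -1.36 (log2 0.33, adjusted p = 0.0202), with 0.04 (adjusted p = 0.720) as a mean over its probes. Ccl27, an epithelial ligand whose probe cannot be told apart from near-identical copies, had 1.29, 1.20 and 1.11 on the vehicle arrays and -0.33 and -0.46 after E2 at 24 h (log2 -1.59, SE 0.09, adjusted p = 3.79e-09). It was also lower after E2 and BPA at 2 h (log2 -0.30 and -0.49) and after BPA and HPTE at 24 h (log2 -0.27 and -0.41), with levels of 0.76, 0.76 and 0.86 after HPTE at 24 h. With spike-in scaling those 4 smaller calls were lost. Cxcl14, an epithelial and stromal ligand, had 3.45, 3.82 and 3.91 on the vehicle arrays, 2.28 and 2.16 after E2 (log2 -1.50, SE 0.25, adjusted p = 7.56e-05) and 3.04, 2.61 and 2.88 after HPTE at 24 h (log2 -0.88, SE 0.22, adjusted p = 0.00664). The HPTE call was lost with the slide as a block (adjusted p = 0.0607). Cxcl4 (now Pf4, a platelet and megakaryocyte ligand) had 1.01, 0.99 and 1.01 on the vehicle arrays, 0.23, 0.41 and 0.74 after HPTE at 2 h, 1.93, 1.40 and 1.92 after BPA at 24 h and 1.96, 1.62 and 1.40 after HPTE at 24 h. It was lower at 2 h (log2 -0.54, adjusted p = 0.0360) and higher at 24 h (log2 0.75 and 0.66, adjusted p = 0.0230 and 0.0194), and all 3 calls were lost with no scaling between arrays and with the slide as a block.

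Genes that shape chemokine signals outside the nomenclature also moved. The atypical receptor Ackr3, which scavenges Cxcl12, was higher after all 3 compounds at 2 h (log2 2.58 for E2, 1.77 for BPA and 2.35 for HPTE) and did not pass at 24 h. Ackr2, a scavenger of CC ligands, was higher at 2 h in the 3 groups (log2 0.87, 1.74 and 1.70) and lower after E2 and HPTE at 24 h (log2 -0.62 and -0.60). Of 13 tested genes of this list 0 were higher and 9 lower after E2 at 24 h (median -0.59, beside 26.3% and 37.6% of all probes), among them the chemerin gene Rarres2 (log2 -1.36) and Ccrl2 (log2 -1.43). Of 17 tested genes of chemokine receptor signalling, 3 were higher and 6 lower after E2 at 24 h, and 7 higher and 1 lower after BPA at 2 h (beside 19.3% and 30.2% of all probes). Rgs2, which limits G protein signals, was lower after all 3 compounds at 2 h (log2 -1.66, -1.73 and -3.38), and Rgs16, of the same family, was higher (log2 1.20, 1.95 and 1.91).

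The compounds were compared directly in 6 comparisons, 3 pairs at 2 times, and adjusted p-values are over all probes within each comparison. BPA and HPTE were given at the same dose and both are bisphenols, joined by a dimethyl-substituted carbon in BPA and by a carbon bearing a trichloromethyl group in HPTE. At 2 h 3 of 44 genes differed between them, beside 0.437% of all probes (0.240% higher and 0.197% lower after HPTE). Cxcl1 (log2 -2.03) and Cxcr4 (log2 -1.50) were lower after HPTE, and Ccl27 was higher (log2 0.47). The count was 13 without BPA 2 h replicate 3 and 31 after normexp. At 24 h Ccl25 was the 1 gene that differed (higher after HPTE, log2 0.41), beside 4.08% of all probes (2.99% higher and 1.09% lower after HPTE), and 8 of 11 alternatives gave a count of 0. Most intervals were wide: for Ccl20 the 95% interval of the HPTE minus BPA difference at 24 h ran from 0.05 to 2.50 (adjusted p = 0.218), and for Ccl24 from -3.75 to -0.73 (adjusted p = 0.0853). The absence of a call does not show that the compounds act alike on these genes.

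E2 was given at a lower dose than BPA and HPTE, so the next comparisons are between treatments and not between compounds at a matched dose. At 24 h 31 genes differed between BPA and E2, 25 of them higher after BPA, beside 57.8% of all probes (33.2% higher and 24.6% lower), and 24 between HPTE and E2, 16 of them higher after HPTE, beside 48.8% (27.3% higher and 21.6% lower). Of the 13 receptors, 9 were higher after BPA than after E2 and 6 higher after HPTE than after E2, and none was lower. Cxcr4 (log2 2.26 and 1.92), Cxcr3 (1.47 and 1.33), Cxcr6 (1.26 and 1.27) and Ccr7 (2.15 and 1.19) were among both. In the Ccl2 cluster Ccl7 (-2.14 and -2.60), Ccl11 (-2.01 and -1.96) and Ccl12 (-1.95 and -1.83) were lower after BPA and HPTE than after E2, and the differences of Ccl8 (-0.15 and -0.31) did not pass. At 2 h 8 genes differed between BPA and E2, beside 19.0% of all probes (7.92% higher and 11.1% lower), with Cxcl1 (log2 2.41), Ccl3 (2.03), Cxcl9 (1.54), Cxcl10 (1.44), Ccl7 (1.42), Ccl2 (1.37) and Ccl12 (0.72) higher and Cx3cl1 (-0.39) lower after BPA. This count fell to 1 without BPA 2 h replicate 1 and rose to 16 without replicate 3. Between HPTE and E2 at 2 h 5 genes differed, beside 16.6% (8.45% higher and 8.18% lower), and Cxcr4 was lower after HPTE (log2 -1.32).

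Between 2 h and 24 h, 28 genes changed after E2 (11 higher and 17 lower at 24 h), beside 56.0% of all probes (25.9% higher and 30.1% lower), 13 after BPA (8 higher and 5 lower), beside 48.4% (28.2% and 20.2%), and 14 after HPTE (11 higher and 3 lower), beside 54.1% (29.5% and 24.6%). Cxcl10 rose by 2.32 after E2 and by 2.34 after HPTE and did not pass after BPA (log2 -0.11). Ccl2, Ccl7 and Ccl12 rose after E2 (log2 1.07, 2.28 and 1.42) and fell after BPA (log2 -1.18, -1.29 and -1.24). The Ccl2 call was lost without any of 10 single arrays for E2 and without any of 4 for BPA. The BPA arrays of the 2 times overlapped for Ccl2, with -0.46 on 24 h replicate 2 and -0.96 on 2 h replicate 3. For Ccl20 0 of 9 arrays at 2 h were well above background, so only a lower bound is given, set against the dimmest probe that each 2 h array still measured well above background. It was at least 7.48-fold higher at 24 h after E2 and at least 5.75-fold higher after HPTE. The bound after BPA was 2.21-fold, but only 2 of the 3 BPA 24 h arrays were well above background. The limma calls for E2, BPA and HPTE (adjusted p = 3.5e-05, 0.0235 and 2.12e-05) used 2 h values that were not well above background. They do not test these bounds. After normexp the BPA difference turned to -1.19 and did not pass. The change from 2 h to 24 h itself differed between BPA and E2 for 27 genes, 17 higher and 10 lower after BPA, beside 50.9% of all probes (28.9% higher and 22.0% lower). It differed between HPTE and E2 for 20 genes, 14 higher and 6 lower after HPTE, beside 46.1% (25.4% and 20.7%). Between HPTE and BPA limma passed 0 genes, beside 0.0863% of all probes (0.0462% higher and 0.0400% lower), and 10 had an unadjusted p under 0.05. That count was 1 without BPA 2 h replicate 2 and 3 without BPA 2 h replicate 3.

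Of the 44 tested genes, 35 passed in at least 1 comparison with vehicle and 9 in none: Ccl6, Ccl9, Cxcl13, Cxcl15, Ccr4, Ccr9, Ccr10, Cx3cr1 and Xcr1. Of all probes 63.8% passed after E2 at 24 h alone, and the share passing in at least 1 comparison was not counted. The count of 35 is therefore not read as a trait of chemokine genes. Cxcl13, the B cell follicle ligand, ranged from -7.09 to -0.53 over the 20 arrays, and its differences after BPA, 2.13 at 2 h and 2.44 at 24 h, did not pass. Xcr1, the Xcl1 receptor of dendritic cells, had 2 probes of opposite sign after E2 at 24 h (log2 0.48 and -1.64, the latter past the threshold). The dimmer Xcr1 probe was also lower after E2 and HPTE at 2 h (log2 -1.02 and -1.10, both past the threshold). For Cxcl15 the dimmer probe was lower after BPA at 2 h and E2 at 24 h (log2 -0.86 and -0.94, both past the threshold). The 6 genes not tested were Ccl1, Ccl22, Cxcl2, Cxcl11, Ccr1 and Ccr8. Ccr8 was at -9.40 to -7.10 on all arrays but HPTE 24 h replicate 3, where it was at -3.78, and Cxcl2 was well above background on 4 of 20 arrays.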

How the data were processed

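RNA of single uteri was hybridized to 20 one-colour Agilent arrays of 45018 spots, 1639 of them controls, and 41174 probes. The deposited processed intensity (gProcessedSignal) is, per the file headers, the Cy3 spot brightness after background subtraction and spatial detrending by Agilent Feature Extraction 9.5 (version from the submitters' processing notes). The deposited flags (unit other) mark control, outlier, saturated and well-above-background spots. The deposited value table held the same intensities as the scanner output (largest difference 0%), with no scaling between arrays, and all columns could be mapped to a sample.

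Intensities were taken to log2 after the authors' processing, and the 75th percentile of each array (intensity 1320 to 2046) was subtracted. The share of probes flagged as well above background was 72.7% to 81.4% per array, and the number of arrays limits the precision. Spots of a probe were averaged, and a gene was read from its brightest probe. Tested probes, 32460 in all, carried that flag on all arrays of 1 or more groups and lacked a value on no more than 2 arrays. Group means of the 7 groups were fitted with limma 3.58.1 in R 4.3.3 (prior degrees of freedom 1.902), with two-sided tests and Benjamini-Hochberg adjustment within each comparison. Slide (6) and scan day (2) were read from the file headers, and each slide held several groups. The fit was tested on simulated data with known changes.

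The alternatives were normexp on the mean and background intensities (offset 50), quantile normalization, no scaling, scaling on 8 spike-in probes, no filter or a strict one, slide, scan day or replicate number as a block, the mean over probes, the compared groups alone, and each array left out in turn. All members of the rule may be named, except that 1 gene is counted but not reported here by name. Values on every array are given for the 4 largest increases and 3 largest decreases without overlap in each comparison with vehicle, and for fixed ligand and receptor pairs. Members, gene lists and marker lists were chosen with earlier results of these data known. The lists of endothelial, pancreatic and sperm genes had 6, 7 and 5 tested genes, of which 0, 3 and 0 were higher and 3, 0 and 5 lower after E2 at 24 h.

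Probe positions are on mm7 as the file headers give them. Promoters are from RefSeq on GRCm38.p6, with 37 of 50 genes matched. The series text states single uteri on one-colour arrays, which the headers bear out, while the study's methods describe pooled tissue and 2-colour arrays and, for E2 only, another route of injection than the labels. The treatment and time tags of the labels are exchanged and were read by content.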

Additional observations from a re-analysis of the deposited data

Results flagged for a closer look

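These genes changed to a different extent between 2 h and 24 h in 2 treatments, by a limma test of the difference of the log2 changes (adjusted p under 0.05 over all probes). The values in brackets are log2 differences, the change after BPA or HPTE minus the change after E2. Values of Ccl20 and Ccr4 have no measured size: Ccl20 was well above background on 0 of 3 arrays of E2 and of BPA at 2 h, and Ccr4 on 0 arrays of HPTE at 2 h and 24 h and of E2 at 24 h. Ccr4 passed the detection filter only through E2 at 2 h, where it is high on replicate 2 (-3.04) but not on replicates 1 and 3 (-6.57 and -6.42). The size for Cxcl5 is uncertain, since it was well above background on only 1 of 3 E2 2 h arrays (levels -6.11, -9.10 and -9.03). E2 was given at a lower dose than BPA and HPTE and its 24 h group holds 2 arrays, so dose and compound cannot be told apart.

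Against E2, the change after BPA was more positive for Ccl17 (1.69), Ccl19 (1.43), Ccl21c (0.663), Ccl24 (5.06), Ccl27 (1.52), Ccr2 (0.751), Ccr3 (2.13), Ccr6 (1.03), Ccr7 (1.37), Cx3cl1 (0.771), Cxcl12 (1.01), Cxcl14 (1.17), Cxcl15 (1.48), Cxcr4 (2.08), Cxcr6 (1.03) and Xcl1 (0.683). It was more negative for Ccl11 (-1.78), Ccl12 (-2.66), Ccl2 (-2.25), Ccl20 (-2.66), Ccl25 (-0.728), Ccl28 (-1.9), Ccl7 (-3.57), Cxcl1 (-2.51), Cxcl10 (-2.43) and Cxcl5 (-4.16). The receptors named in this comparison all had positive values, and the Ccl2 neighbours Ccl7, Ccl11 and Ccl12 had negative ones.

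Against E2, the change after HPTE was more positive for Ccl17 (1.77), Ccl27 (0.91), Ccl5 (1.86), Ccr4 (3.29), Ccr7 (1.57), Cx3cl1 (0.808), Cxcl12 (0.885), Cxcl13 (3.6), Cxcl15 (1.61), Cxcl4 (1.06), Cxcr3 (1.34), Cxcr4 (3.25), Cxcr6 (1.24) and Xcl1 (0.857). It was more negative for Ccl11 (-1.39), Ccl12 (-2.58), Ccl2 (-1.58), Ccl25 (-0.397), Ccl28 (-1.56) and Ccl7 (-2.94). Cxcr4, which fell at 2 h after every compound and at 24 h after E2 alone, had positive values in both comparisons.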

How the results depend on the processing

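Of 68 calls against vehicle 20 passed under every alternative run, among them Ccl11, Ccl12, Ccl7, Ccl24, Cxcl12, Cxcr3, Cxcr4 and Cxcr6 after E2 at 24 h, Ccl2, Ccl4, Ccl7 and Cxcl1 after BPA at 2 h and Cxcr4 and Cxcl10 after HPTE at 2 h. Normexp lost 34 of the 68, spike-in scaling 28, the slide as a block 16, no scaling 13, the compared groups alone 12, quantile normalization 7, the scan day as a block 5, no filter on dim probes 4 and the mean over probes 3, and of the 63 calls of genes well above background on every array 0 were lost on those genes alone. Except where the sentences below say that fewer arrays or probes entered, the cause was not tested. No scaling and spike-in scaling shift the median difference of all probes. With no scaling it was -0.29 after E2 at 2 h, and with spike-in scaling -0.36 after HPTE at 24 h. In the main fit these medians were -0.058 and -0.059. Dim genes, such as Ccl20 and Cxcl5, have levels near background, which limits their fold changes.

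Counts of chemokine genes that passed moved by more than 1.5 times as follows. After normexp they were 1 (main value 4) for E2 at 2 h, 4 (11) for HPTE at 2 h, 18 (29) for E2 at 24 h, 0 (6) for BPA at 24 h and 1 (7) for HPTE at 24 h against vehicle. Between treatments normexp gave 0 (5) for HPTE against E2 and 31 (3) for HPTE against BPA at 2 h, and 20 (31) for BPA against E2, 12 (24) for HPTE against E2 and 0 (1) for HPTE against BPA at 24 h. Between times it gave 15 (28) after E2, 3 (13) after BPA and 9 (14) after HPTE, and for the difference of these changes from E2 13 (27) for BPA and 11 (20) for HPTE. With spike-in scaling the counts against vehicle were 2 for E2, 6 (11) for BPA and 4 for HPTE at 2 h and 0 for BPA and 3 for HPTE at 24 h. Between treatments it gave 2 (8) for BPA against E2, 1 for HPTE against E2 and 0 for HPTE against BPA at 2 h, 19, 8 and 0 in the same order at 24 h, 6 for BPA between times, and 12 and 9 for the differences of change from E2. With no scaling the counts were 6 for HPTE at 2 h and 1 for BPA at 24 h against vehicle, 16 for BPA against E2 at 2 h, 0 for HPTE against BPA at 24 h, and 17 and 9 for the differences of change. With the slide as a block they were 0 for BPA and 3 for HPTE at 24 h against vehicle, 3 for BPA against E2 and 2 for HPTE against E2 at 2 h, 0 for HPTE against BPA at 24 h, and 7 for BPA and 8 for HPTE between times. On the compared groups alone, with fewer arrays in the fit, they were 18 for HPTE at 2 h and 3 for BPA at 24 h against vehicle, 2 for BPA against E2, 3 for HPTE against E2 and 0 for HPTE against BPA at 2 h, 0 for HPTE against BPA at 24 h and 8 for BPA between times. BPA at 24 h gave 3 with no filter and 3 with the scan day as a block, and HPTE against BPA at 24 h gave 0 with no filter and 0 with the mean over probes. At an unadjusted p under 0.05 these limma counts of 0 were 9 (normexp), 9 (spike-in) and 16 (slide) for BPA at 24 h, 8 for HPTE against E2 at 2 h, 14 (spike-in) and 21 (groups alone) for HPTE against BPA at 2 h, and between 3 and 10 for HPTE against BPA at 24 h.

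Some single calls changed sign, none of them past the threshold then. After normexp the change from 2 h to 24 h after BPA was -1.19 for Ccl20 and -0.62 for Ccr3. With spike-in scaling the change after HPTE was -0.27 for Ccl25. With no scaling Cx3cl1 differed by 0.0446 between HPTE and E2 at 2 h.

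Leaving out each array in turn gave 3 to 4 genes for E2, 11 to 18 for BPA and 6 to 12 for HPTE at 2 h and 24 to 30, 1 to 8 and 5 to 9 at 24 h against vehicle. Between BPA and E2, HPTE and E2, and HPTE and BPA it gave 1 to 16, 2 to 7 and 1 to 13 at 2 h and 24 to 34, 18 to 25 and 0 to 2 at 24 h. Between times it gave 21 to 30 after E2, 7 to 17 after BPA and 11 to 15 after HPTE, and for the differences of change 19 to 27, 15 to 23 and 0 to 3 in the order above. BPA 2 h replicate 3 moved 5 of these counts by more than 1.5 times, to 18 for BPA against vehicle, 16 against E2, 13 and 2 for HPTE against BPA at 2 h and 24 h, and 3 for their difference of change. BPA 2 h replicate 1 moved BPA against E2 at 2 h to 1, HPTE against BPA at 2 h to 1 and BPA between times to 8, and BPA 2 h replicate 2 moved BPA against E2 to 2 and the difference of change between HPTE and BPA to 1. BPA at 24 h against vehicle gave 1 when replicate 1 or 2 of vehicle or replicate 1 of BPA at 24 h was left out, and 2 when replicate 3 of BPA at 24 h was. It gave 3 when replicate 3 of E2 at 2 h, any HPTE array at 2 h, or replicate 2 or 3 of HPTE at 24 h was left out. BPA between times gave 7 without BPA 24 h replicate 1 and 8 without replicate 3. BPA against E2 at 2 h gave 5 without E2 replicate 2 and 4 without replicate 3, and HPTE against E2 at 2 h gave 2 without E2 replicate 1 or HPTE replicate 2 and 3 without E2 replicate 3 or HPTE replicate 1. HPTE against BPA gave 1 at 2 h without HPTE replicate 1 or 2, and at 24 h 0 (3 to 8 at an unadjusted p under 0.05) when replicate 2 of BPA at 24 h, replicate 1 of HPTE at 2 h, or replicate 2 or 3 of HPTE at 24 h was left out. HPTE at 2 h against vehicle gave 6 without vehicle replicate 2 and 7 without HPTE replicate 3. Where an E2 24 h array is left out, the remaining one is assumed to vary like the other groups.

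The replicate numbers do not pair the uteri. Over 57 pairs of arrays of the same number in different groups, the deviations from the group means correlated at -0.36 to 0.33 (median -0.05), and 4 of 20 arrays correlated best with their own number. With the replicate block 7 of 195 calls over all comparisons did not pass, the count was 29 for E2 and 5 for BPA at 24 h against vehicle, 29 for BPA against E2 and 23 for HPTE against E2 at 24 h, 0 for HPTE against BPA at 24 h (10 at an unadjusted p under 0.05), 29 for E2 and 14 for BPA between times and 28 for BPA against E2 in the difference of change, and the other counts were as without it.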
